A study of Sus scrofa with 12 samples.

Results

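The nuclear-encoded genes of respiratory complexes II, III and IV, of cytochrome c and of complex V were followed through the in vitro maturation of porcine oocytes. Members were the genes with a pig symbol beginning with ATP5, UQCR or any of COX4 to COX8, together with the SDH genes, CYC1 and CYCS. Of the 31908 gene identifiers in the files, 39 matched. The reference gene name table named 36 of them: 4 of complex II, 7 of complex III, cytochrome c, 13 of complex IV and 11 of complex V. The other 3, ATP5MC2, ATP5PD and ATP5E, were named only by the study's supplementary gene list, which is ordered by change in these same libraries and was at hand in shortened form. These 3 are described with their values and left out of the counts of called genes and of the medians. The subunits ATP5F1B, ATP5MF, ATP5MG, ATP5MJ, COX6B1, COX6C, UQCRB and UQCRH were not analysed here.

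The oocytes came from slaughterhouse ovaries of prepubertal gilts and matured inside their cumulus complexes, in a TCM199-based medium with follicular fluid, epidermal growth factor, PMSG and HCG. They were stripped of cumulus cells, and 20 denuded oocytes made up each library. Stages were times in culture: 0h (germinal vesicle stage, GV), 22h (Pre-MI) and 46h (metaphase II, MII), as the design text names them, with 4 libraries each and 12 in all, and no stage carried a genotype or treatment beyond its culture time. A library can therefore hold oocytes at other meiotic stages than the one its time is named for. Nothing in the labels says whether the 4 libraries of a stage came from separate pools of ovaries, so the p-values measure only the spread between these libraries, which may be technical.

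Oxidative phosphorylation passes electrons from NADH or succinate down a chain of protein complexes in the inner mitochondrial membrane and uses the proton gradient this builds to make ATP. Complex II is succinate dehydrogenase, which also works in the TCA cycle and is wholly encoded in the nucleus. Complex III hands electrons to cytochrome c, complex IV passes them to oxygen, and complex V is the ATP synthase. In complexes III, IV and V most subunits are nuclear, while a few core subunits come from mitochondrial DNA. Oocytes take up pyruvate and rely largely on this pathway for ATP, and a full-grown oocyte is nearly silent in transcription and lives on stored maternal mRNA.

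Levels are FPKM, that is fragments relative to the length of the transcript and to the fragments of the library, so genes can be set against each other per length. Read counts were not at hand, the depth of each library is unknown, and the spread over 4 libraries is the measure of precision. Total FPKM was 697468 to 802184 per library. The 13 mitochondrially encoded protein genes held between 1.79% and 3.76% of it in the 0h libraries, between 8.06% and 12.02% in the 22h libraries and between 12.8% and 16.7% in the 46h libraries, and a rise of that share lowers the FPKM of all other genes. The 0h replicate 4 stood apart from the other 0h libraries, with the lowest correlation in its stage (r = 0.934, log2 scale, across genes). Of 14 oocyte markers, 13 were matched and all 13 were above 0 in every library. Of 18 markers of cumulus and granulosa cells, 15 were matched, and their summed level lay between 46.0 and 98.9 FPKM in the 0h libraries, 62.2 and 94.4 in the 22h libraries and 122 and 156 in the 46h libraries. Most of it was VCAN, while LHCGR and INHA were at 0 in all 12 libraries and HAS2 reached at most 0.06 FPKM. KITLG (at most 15.81 FPKM), STAR (at most 7.58) and GREM1 (at most 0.86) were, like VCAN, above 0 in every library. The part of other cell types in the changes below was not tested. In pools of oocytes, fewer cells holding a transcript and less of it per cell cannot be told apart. FPKM is relative to the library and gives no amount of RNA per oocyte.

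Most members had less transcript at 46h than at 0h. Complex V held both the deepest falls and the 2 rises past the thresholds in that comparison. Those 2 were 18.2% of its genes tested, near the 16.8% of all genes. The share of total FPKM held by the 36 genes named by the reference table lay between 1.03% and 1.14% for 0h, 0.850% and 0.932% for 22h and 0.380% and 0.460% for 46h, so the groups of libraries did not overlap. Much of this was COX7A2L, a factor that helps join complexes III and IV into supercomplexes, which alone held between 0.425% and 0.546% for 0h, 0.585% and 0.657% for 22h and 0.190% and 0.227% for 46h. Without it the others held 0.486% to 0.709%, 0.251% to 0.275% and 0.190% to 0.233% of total FPKM in the same order.

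**Figure D1:**
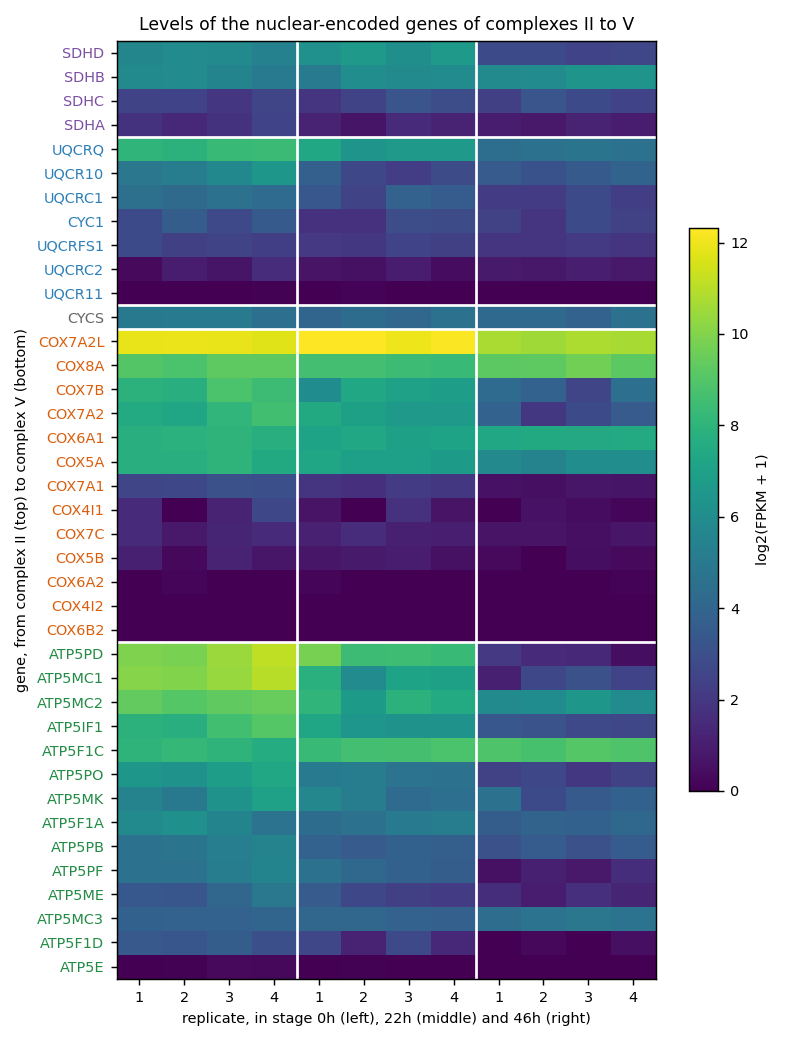
Level of each of the 39 genes (rows, colored by complex, with complex II at the top and complex V at the bottom) in each of the 12 libraries (columns), as log2(FPKM + 1). COX7A2L was the brightest row at every stage, and rows such as ATP5PD and ATP5MC1 darkened from 0h to 46h while ATP5F1C and COX8A did not.

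The tests asked which genes differed between stages. They were made with limma on log2(FPKM + 1) over the genes that averaged 1 FPKM or more across libraries, with Benjamini-Hochberg adjustment over all of them, and a gene was called higher or lower with an adjusted p under 0.05 and a fold change over 1.5. On this scale the change of a low gene is understated. Among the members 30 of the 36 passed the filter, 25 of them with a mean of at least 1 FPKM at every stage. At 22h against 0h, 17 of the 30 were lower and 2 were higher, where 18.9% of all genes tested were lower and 7.84% higher. At 46h against 22h, 16 were lower and 2 higher, against 32.6% lower and 9.87% higher of all genes. At 46h against 0h, 22 were lower and 2 higher, against 39.1% and 16.8%. Among the 25 genes above 1 FPKM at every stage, 14, 14 and 18 were lower in the 3 comparisons and 2 were higher in each, where the 5724 genes that passed the same filter gave 14.5%, 26.3% and 30.7% lower and 9.14%, 11.7% and 19.8% higher. The 5 other members tested, ATP5F1D, COX4I1, COX7A1, COX7C and SDHA, had a mean under 1 FPKM at 46h and passed the filter through earlier stages where they were higher, so a lower level at 46h was favored by the filter.

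The median log2 fold change of the members was -0.81 at 22h against 0h, -0.97 at 46h against 22h and -1.80 at 46h against 0h, beside -0.00, -0.26 and -0.25 over all genes tested. All 4 libraries of the later stage lay below all 4 of the earlier stage for 13, 15 and 22 members, where this held for 18.6%, 35.4% and 39.2% of all genes. They lay above them for 3, 3 and 2 members, beside 10.3%, 13.2% and 18.2% of all genes. The comparisons share stages, so the counts are not independent of each other. Log2 fold changes below -3 were seen in 1, 6 and 9 members, beside 0.185%, 2.95% and 7.13% of all genes. The split between higher and lower depended on the scaling. Higher genes made up 11.1% of the called members at 46h against 22h as deposited, 30% after median-of-ratios scaling and 25% after quantile normalization. For 46h and 0h they made up 8.33%, 20.8% and 18.2%. The median of all genes at 46h against 0h moved from -0.25 to 0.06 after median-of-ratios scaling and to 0.37 after quantile normalization, and the members' median then was -1.41 and -1.36.

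**Figure D2:**
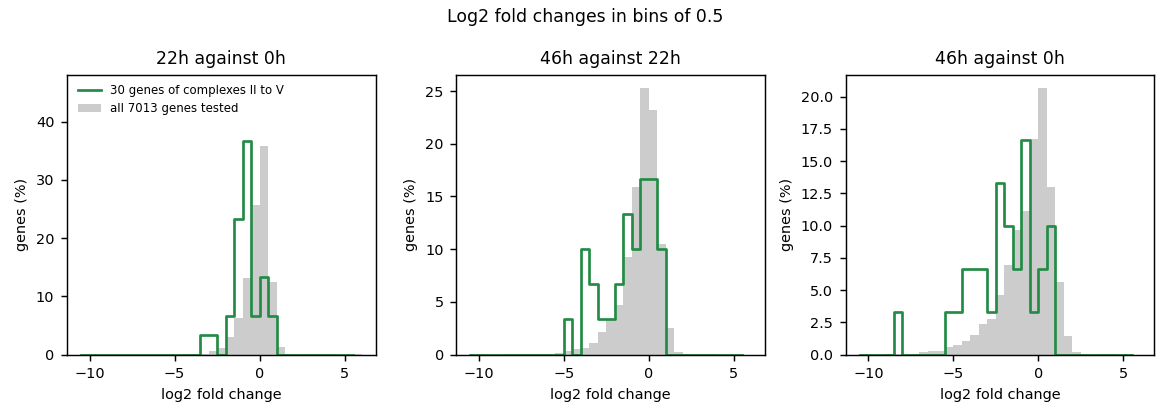
Share of genes (vertical axis, %) by log2 fold change (horizontal axis, bins of 0.5) for all genes tested (grey bars) and the 30 members tested (green line), in each comparison. The members' line is shifted toward negative values, with medians of -0.81, -0.97 and -1.80 from left to right.

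Over both steps, 11 members were lower and lower again, where 11.6% of all genes tested did this. Another 5 were called lower in the step to 22h and not called in the next, and 4 were not called in the step to 22h and called lower in the next, where all genes gave 6.59% and 19.1%. A called and an uncalled step are not thereby shown to differ. Neither step was called for 6 members (45.9% of all genes). The remaining 4 each had a pattern that no other member tested had. SDHD was higher then lower (1.83% of all genes), and COX8A was lower then higher (0.627%). ATP5F1C was higher at 22h and not called after it (5.06%). ATP5MC3 was not called at 22h and higher in the step to 46h (8.28%). Counts of 1 member are too few to set against these shares.

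Of the 4 genes of complex II, 1 was lower (SDHA) and 1 higher (SDHD) at 22h against 0h, where all genes gave 18.9% and 7.84%. At 46h against 22h 1 was lower and at 46h against 0h 2 were, beside 32.6% and 39.1% of all genes. With 4 genes, these counts are near the background. SDHD encodes a small membrane anchor that holds the ubiquinone site together with SDHC. Its levels were 48.7, 59.9, 55.8 and 41.8 FPKM at 0h, 73.7, 98.7, 69.8 and 100.4 at 22h and 5.75, 5.74, 4.56 and 5.23 at 46h. All 22h libraries were above all 0h libraries, and all 46h libraries were far below both. The log2 fold change was 0.72 ± 0.17 (SE) at 22h (adjusted p = 0.00649), -3.76 ± 0.17 in the step to 46h (adjusted p = 6.02e-10) and -3.05 ± 0.17 over the whole time (adjusted p = 2.26e-09). The second step differed from the first by -4.48 ± 0.30 on the log2 scale (adjusted p = 1.62e-07), in a contrast whose steps share the 22h libraries.

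SDHB carries the iron-sulfur centers that lead electrons to ubiquinone. Its levels were 57.9, 60.6, 45.4 and 32.9 FPKM at 0h, 33.8, 63.96, 58.7 and 59.9 at 22h and 57.8, 60.4, 81.6 and 80.9 at 46h, and the 3 groups overlapped. From 0h to 46h the log2 fold change of SDHB was 0.52 ± 0.24 (adjusted p = 0.0711), which did not pass, although it was called higher with median-of-ratios scaling (0.92), after quantile normalization, with mitochondrially encoded genes removed before scaling (0.61) and without 0h replicate 2 (0.64). At 0h SDHD and SDHB lay side by side, at 51.5 ± 8.0 and 49.2 ± 12.7 FPKM (SD, n = 4). By 46h SDHB, at 70.2 ± 12.8 FPKM, lay far above SDHD, at 5.32 ± 0.562.

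The other anchor gene, SDHC, was low and uneven, with 4.74, 4.51, 2.88 and 5.0 FPKM at 0h, 2.73, 4.76, 8.6 and 6.64 at 22h and 4.1, 8.34, 5.9 and 4.59 at 46h. Its stages overlapped and no comparison was called, with an adjusted p of 0.316 at 46h against 0h, although SDHC was called higher there after quantile normalization (1.01) and median-of-ratios scaling (0.67). SDHA encodes the flavoprotein that oxidizes succinate. Its levels were 2.45, 1.71, 2.48 and 4.5 FPKM at 0h, 1.34, 0.62, 1.78 and 1.26 at 22h and 0.89, 0.79, 1.36 and 0.9 at 46h, the lowest of the complex. SDHA was lower at 22h against 0h with -0.73 ± 0.22 (adjusted p = 0.0213), although 1 pair of libraries overlapped, and at 46h against 0h with -0.89 ± 0.22 (adjusted p = 0.00263). SDHA passed the filter through its earlier stages, which favored a lower level at 46h. Its call at 22h was lost without 0h replicate 4 (-0.53), without 22h replicate 2 (-0.58), without the filter and with only the 2 stages in the fit, and its call at 46h was lost with quantile normalization (-0.22).

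**Figure D3:**
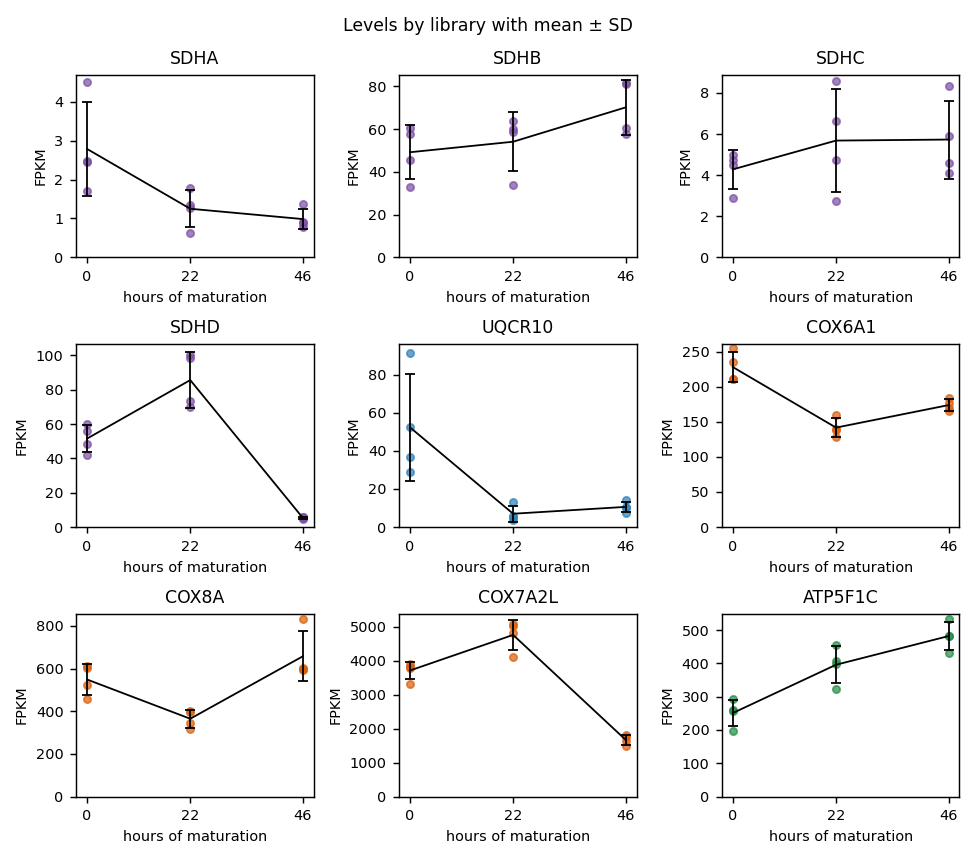
FPKM (vertical axis, from 0) against hours of maturation (horizontal axis) for 9 genes that did not all follow the group. Points are libraries, and black lines give the mean ± SD of 4 libraries. SDHD peaked at 22h at 85.7 FPKM and fell to 5.32, while SDHB stayed between 32.9 and 81.6.

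In complex III, 3 of 5 genes tested were lower at 22h against 0h, 2 at 46h against 22h and 4 at 46h against 0h, and none was called higher as deposited. Of all genes tested 18.9%, 32.6% and 39.1% were lower in these comparisons, so the count at 46h against 22h was near the background. The same shares, with 7.84%, 9.87% and 16.8% higher, are the background of the counts for complexes IV and V. The deepest fall of the complex from 0h to 46h was that of UQCRQ, a small subunit beside the cytochrome b core, with -3.565 ± 0.208 (adjusted p = 2.91e-09). Its levels were 263, 241, 312 and 339 FPKM at 0h, 166, 80.8, 97.6 and 96.8 at 22h and 20.6, 22.96, 25.8 and 24 at 46h. No libraries of different stages overlapped, and the log2 fold change was -1.42 ± 0.21 for the step to 22h (adjusted p = 0.000206) and -2.14 ± 0.21 for the step to 46h (adjusted p = 1.15e-06).

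UQCR10, another small subunit, fell in the step to 22h and did not fall further after it. It had 28.8, 36.6, 52.5 and 91.7 FPKM at 0h, 12.9, 5.3, 3.66 and 6.01 at 22h and 10.5, 7.6, 10.2 and 13.9 at 46h. The log2 fold change was -2.73 ± 0.36 at 22h (adjusted p = 9.44e-05) and 0.63 ± 0.36 after that, which did not pass as deposited (adjusted p = 0.16) but was called higher with quantile normalization (1.11), with median-of-ratios scaling (0.95) and without 22h replicate 1 (0.94). The steps of UQCR10 differed by 3.37 ± 0.62 (adjusted p = 0.00143). 

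CYC1 encodes cytochrome c1, the subunit that hands electrons to cytochrome c. Its levels were 5.86, 11.5, 5.62 and 10.1 FPKM at 0h, 2.38, 2.34, 6.46 and 6.11 at 22h and 4.24, 2.63, 5.79 and 4.32 at 46h. The stages overlapped in every comparison. CYC1 gave -0.85 ± 0.31 at 22h against 0h, which was not called (adjusted p = 0.0525) but was called lower without 0h replicate 1, 0h replicate 3, 22h replicate 3 or 22h replicate 4. CYC1 was lower at 46h against 0h with -0.80 ± 0.31 (adjusted p = 0.0378), and this call was lost with 4 other settings and when any of 5 libraries was left out, so it lies close to the threshold. The core subunit UQCRC1, chosen after its values were seen, fell from 20.7 ± 2.42 to 9.69 ± 3.78 and 4.17 ± 1.03 FPKM, with a log2 fold change of -2.08 ± 0.25 over the whole time (adjusted p = 4.49e-06). UQCRFS1, the Rieske iron-sulfur protein, had 5.78, 4.06, 4.67 and 3.85 FPKM at 0h, 3.11, 3.03, 4.5 and 4.08 at 22h and 2.77, 2.55, 3.21 and 2.67 at 46h. At 46h against 0h its libraries did not overlap and it lay just outside the fold threshold, with -0.55 ± 0.16 (adjusted p = 0.00838). It was called lower there with TPM (-0.66), with a pseudocount of 0.1 (-0.68) and without 0h replicate 2, 0h replicate 4 or 46h replicate 3, and after quantile normalization its value was 0.14.

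Cytochrome c itself, CYCS, is the soluble carrier between complexes III and IV and also takes part in apoptosis when released. Its levels were 30.1, 32.6, 32.9 and 21.7 FPKM at 0h, 15.4, 19.3, 15.6 and 23.03 at 22h and 17.7, 17.5, 13.5 and 23.2 at 46h. CYCS was lower at 22h against 0h with -0.65 ± 0.20 (adjusted p = 0.0236) and at 46h against 0h with -0.68 ± 0.20 (adjusted p = 0.00816), and the later step gave -0.03 ± 0.20. In both called comparisons a 0h library, replicate 4, lay within the later range. With median-of-ratios scaling the 2 changes were -0.60 and -0.30 and neither was called, nor was either with quantile normalization. The call at 22h was also lost when mitochondrially encoded genes were removed before scaling (-0.58) and when any of 5 libraries was left out (0h replicates 1, 2 and 3 and 22h replicates 1 and 3), and that at 46h without 46h replicate 3 (-0.56).

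Of the 9 complex IV genes tested, 5 were lower at 22h against 0h, 5 lower and 1 higher at 46h against 22h, and 6 lower and none higher at 46h against 0h. COX7A2 encodes the common form of a small subunit whose other form, COX7A1, is typical of heart and muscle. COX7A2 levels were 184, 152, 271 and 384 FPKM at 0h, 176, 125, 98.3 and 98.2 at 22h and 13.7, 3.05, 5.88 and 10.6 at 46h. COX7A2 was lower in the later step, with -3.88 ± 0.38 (adjusted p = 1.21e-06). The step to 22h gave -0.94 ± 0.38 and was not called (adjusted p = 0.0725), although it was called lower with only the 2 stages in the fit and without 0h replicate 2, 22h replicate 1 or 46h replicate 2. The steps of COX7A2 differed by -2.94 ± 0.65 (adjusted p = 0.00547).

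The muscle form COX7A1 was low, at 5.05, 5.38, 7.43 and 7.15 FPKM at 0h, 2.73, 2.13, 3.55 and 2.98 at 22h and 0.5, 0.44, 0.68 and 0.61 at 46h. It fell in both steps, with -0.91 ± 0.16 (adjusted p = 0.000923) and -1.29 ± 0.16 (adjusted p = 1.63e-05), with no overlap of libraries. COX7A1 passed the filter through its earlier stages, which favored a lower level at 46h. COX7B, another small subunit, had 240.0, 212, 455 and 347 FPKM at 0h, 62.2, 160.1, 131 and 120.3 at 22h and 18.97, 13.5, 4.92 and 21.4 at 46h. It too fell in both steps, with -1.41 ± 0.40 (adjusted p = 0.0156) and -3.01 ± 0.40 (adjusted p = 2.57e-05), though the earlier call was lost without 0h replicate 3.

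COX8A and COX6A1 dipped at 22h. COX8A, the common form of the smallest subunit, had 523, 459.6, 611 and 603 FPKM at 0h, 402, 398, 344 and 315 at 22h and 600.0, 605, 832 and 594 at 46h. All 22h libraries lay below all 0h and all 46h libraries, while 0h and 46h overlapped, and only with median-of-ratios scaling was COX8A called higher at 46h than at 0h (0.66). The step to 22h was -0.59 ± 0.17 (adjusted p = 0.0161), a fitted fold of 1.501 that lies just inside the threshold of 1.5 and was lost when any of 4 libraries was left out and in 3 other scalings. The step to 46h was 0.84 ± 0.17 (adjusted p = 0.000853), and the steps of COX8A differed by 1.43 ± 0.29 (adjusted p = 0.00296). At 46h it was the second most abundant member, after COX7A2L.

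COX6A1, the common form of subunit VIa, had 211, 236, 255 and 212 FPKM at 0h, 139.8, 160.0, 129 and 139 at 22h and 166, 177, 169 and 184 at 46h. Its 3 groups of libraries did not overlap in any pair of stages, yet as deposited only the step to 22h passed the fold threshold, with -0.68 ± 0.14 (adjusted p = 0.00208). The step to 46h was 0.30 ± 0.14, and with median-of-ratios scaling it was 0.65 and called higher, and the difference of the steps was 0.98 ± 0.24 (adjusted p = 0.00928). Over all genes tested, the difference of the steps was called higher for 4.73% and lower for 16.2%. Among the 30 members it was called higher for 3 (UQCR10, COX8A and COX6A1) and lower for 5 (SDHD, COX7A2, COX7A2L, ATP5IF1 and ATP5PF). This split depended on the scaling. After quantile normalization ATP5MC3, ATP5PB and SDHA were also called higher and ATP5IF1 was no longer called. With median-of-ratios scaling ATP5MC3 and ATP5PB were also called higher.

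COX7A2L was the most abundant member at every stage. Its levels were 3806, 3910.0, 3799.7 and 3328 FPKM at 0h, 5085, 5021, 4121 and 4810.4 at 22h and 1747, 1482, 1798 and 1644 at 46h. All 22h libraries were above all 0h libraries and all 46h libraries were below both, with a change of 0.36 ± 0.14 at 22h that was not called (adjusted p = 0.0662) and of -1.51 ± 0.14 in the step to 46h (adjusted p = 7.05e-07). The steps of COX7A2L differed by -1.87 ± 0.24 (adjusted p = 7.65e-05). COX7A2L was chosen here after its values were seen. In RefSeq it shares 1640 bases with a pseudogene on the opposite strand, and the amplification used keeps no strand, so reads of the pair could not be told apart. COX5A, a nuclear subunit on the matrix side of the enzyme that was also chosen after its values were seen, fell from 215 ± 33.05 to 125 ± 20.6 and 56.97 ± 9.26 FPKM, with -1.90 ± 0.18 over the whole time (adjusted p = 4.34e-07).

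COX4I1, the common form of subunit IV, was near the limit of what was tested. It had 1.79, 0, 1.33 and 5.44 FPKM at 0h, 0.56, 0, 2.39 and 0.58 at 22h and 0, 0.51, 0.31 and 0.17 at 46h and varied widely within 0h and 22h. No comparison of COX4I1 was called, with -1.04 ± 0.46 at 46h against 0h (adjusted p = 0.0595), although it was called lower there without 0h replicate 2 (-1.49) and without 22h replicate 3 (-1.04). COX7C, a small subunit, lay on the edge as well, with 1.88, 0.78, 1.38 and 1.87 FPKM at 0h, 1.21, 1.92, 1.15 and 1.02 at 22h and 0.57, 0.58, 0.44 and 0.66 at 46h. Its 46h libraries lay below all others, and it was called lower at 46h against 0h with -0.64 ± 0.18 (adjusted p = 0.00594), missed the fold threshold at 46h against 22h with -0.56 ± 0.18, and after quantile normalization had a value of 0.095 for 46h against 0h. COX7C passed the filter through its earlier stages, which favored a lower level at 46h. Its call at 46h against 0h was also lost with median-of-ratios scaling (-0.45) and without 0h replicate 1 or 4 (both -0.56), and that at 46h against 22h was gained in 6 settings, among them TPM (-0.68). The files list COX4I2, the form induced by low oxygen in lung, and COX6B2, the testis form of subunit VIb, at 0 in all 12 libraries. COX6A2, the heart and muscle form, reached at most 0.12 FPKM and was above 0 in 1 library of each stage. COX7B2 and COX8C were not analysed here.

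The other members under the filter were UQCRC2, UQCR11, COX5B and ATP5E. UQCRC2, a core subunit of complex III, had 0.24, 0.92, 0.61 and 1.95 FPKM at 0h, 0.59, 0.46, 0.98 and 0.34 at 22h and 0.88, 0.72, 1.03 and 0.77 at 46h, and its stages overlapped. COX5B, a peripheral subunit of complex IV, had 1.1, 0.21, 1.3 and 0.67 FPKM at 0h, 0.67, 0.86, 0.93 and 0.46 at 22h and 0.25, 0, 0.36 and 0.23 at 46h. COX5B at 46h against 22h gave p = 0.0286 in an exact two-sided permutation test of 4 against 4 libraries, the smallest p this design allows, where 9.47% of the genes under the filter with a value above 0 were lower with a p under 0.05. No other member under the filter reached it in any comparison. Of all genes under the filter, 4.82% were lower and 0.76% higher at 22h against 0h, 0.689% were higher at 46h against 22h, and 15.9% were lower and 1.07% higher at 46h against 0h. UQCR11 was at most 0.10 FPKM and ATP5E, the epsilon subunit of the ATP synthase, at most 0.25 FPKM. The cause of these levels near 0 was not tested, nor was whether reads of these genes were assigned elsewhere.

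**Figure D4:**
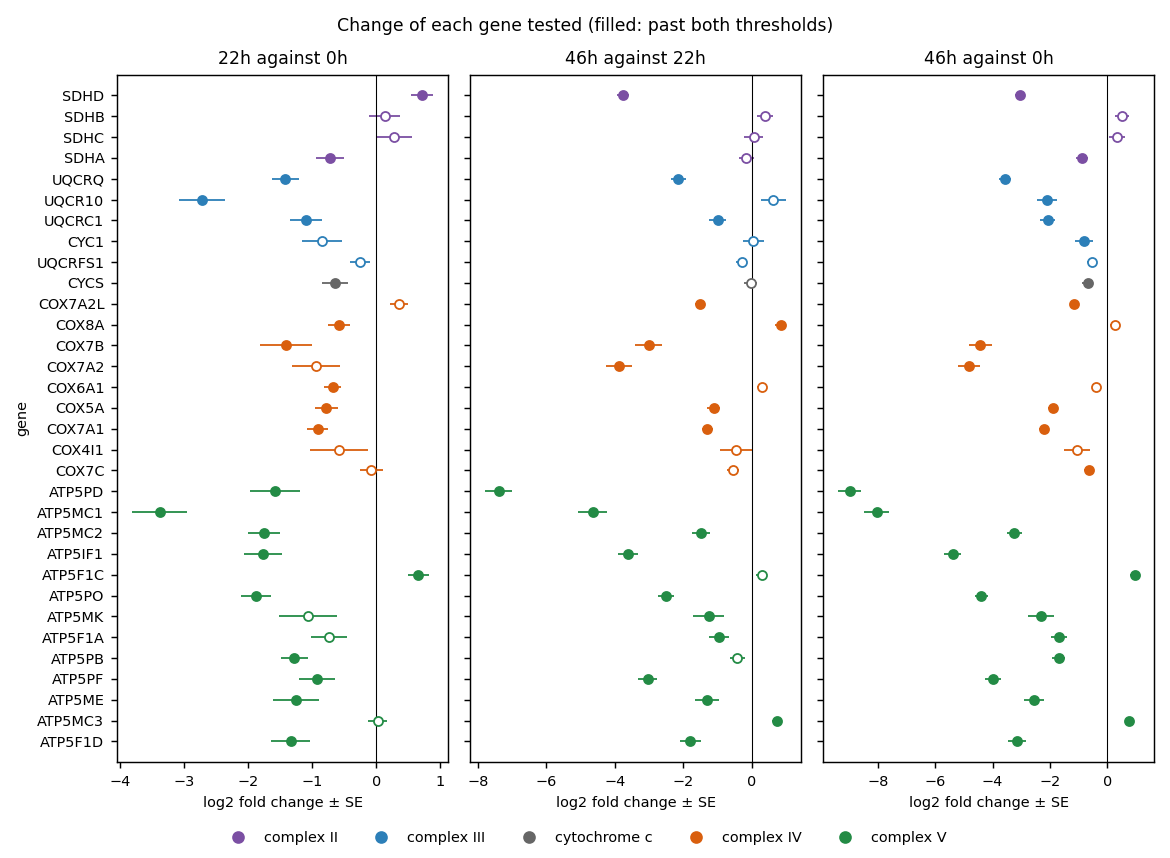
Log2 fold change ± SE (horizontal axis) of each gene tested (rows, colored by complex) in the 3 comparisons, filled where both thresholds were passed. Complex V spans the widest range at 46h against 0h, from -8.98 (ATP5PD) to 0.95 (ATP5F1C).

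In complex V, 7 of 11 genes tested were lower and 1 higher at 22h against 0h, 8 lower and 1 higher at 46h against 22h, and 9 lower and 2 higher at 46h against 0h. The shares higher (9.09%, 9.09% and 18.2%) were near those of all genes (7.84%, 9.87% and 16.8%). In this enzyme protons turn a ring of identical c subunits in the membrane, a central shaft carries the turn into the catalytic head, F1, and a peripheral stalk keeps the head from turning along. The c subunit is encoded by ATP5MC1, ATP5MC2 and ATP5MC3, whose products differ in the mitochondrial targeting peptide and are cut to the same mature protein. Their last coding exon, which ends at the stop codon, shows how alike and yet distinct the 3 transcripts are. Each holds 115 coding bases, printed here 5′ to 3′ from RefSeq (Sscrofa11.1), with capitals at the 28 positions that are not the same in all 3. They lie at chr12:25113263-25113377, plus strand (ATP5MC1), chr5:18871175-18871289, minus strand (ATP5MC2) and chr15:81091183-81091297, minus strand (ATP5MC3).
ATP5MC1: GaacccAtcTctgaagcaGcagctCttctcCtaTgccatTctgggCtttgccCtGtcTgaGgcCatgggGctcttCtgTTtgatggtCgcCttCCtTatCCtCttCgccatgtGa
ATP5MC2: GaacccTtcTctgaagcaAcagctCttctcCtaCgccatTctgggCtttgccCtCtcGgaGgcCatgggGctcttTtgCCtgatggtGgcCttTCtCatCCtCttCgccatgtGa
ATP5MC3: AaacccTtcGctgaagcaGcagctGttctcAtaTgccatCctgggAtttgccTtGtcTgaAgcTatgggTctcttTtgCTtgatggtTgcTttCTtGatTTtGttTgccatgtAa

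ATP5MC1 and ATP5MC2 were identical at 90.4% of these bases, ATP5MC1 and ATP5MC3 at 80.9%, and ATP5MC2 and ATP5MC3 at 78.3%. Over the whole coding sequences the longest runs shared were 20, 14 and 17 bases in the same order. Of the 28 positions that differ, 23 are the last base of a codon.

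The expression of the 3 genes parted during maturation. ATP5MC1 (ENSSSCG00000017544) had 1074, 993, 1356 and 2044 FPKM at 0h, 225, 60.1, 139 and 125 at 22h and 1.11, 5.31, 7.39 and 4.53 at 46h. It lost most of its level by 22h, with a change of -3.39 ± 0.43 on the log2 scale (adjusted p = 7.86e-05), and fell again to 46h, with -4.65 ± 0.43 (adjusted p = 6.82e-07). At -8.04 ± 0.43 over the whole time it had the deepest fall of the 30 members tested. ATP5MC2 (ENSSSCG00000033368, named by the supplementary list) had 660.3, 532, 640.2 and 709.7 FPKM at 0h, 262, 104, 236 and 186 at 22h and 55.9, 62.7, 89.9 and 59.6 at 46h. Its fall of -3.24 ± 0.26 (adjusted p = 6.72e-08) was smaller, and its libraries did not overlap between stages.

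ATP5MC3 (ENSSSCG00000015973) had 13.3, 13.8, 13.8 and 15.3 FPKM at 0h, 15.5, 15.8, 13.4 and 12.6 at 22h and 20.2, 24.4, 28.1 and 25.2 at 46h. It was flat to 22h, with 0.02 ± 0.15, and rose by 0.73 ± 0.15 to 46h (adjusted p = 0.000947), where all its libraries were above all earlier ones. The difference of these steps was 0.71 ± 0.25 and was not called (adjusted p = 0.0628), although it was in 4 other settings, with 0.71 to 1.03. As shares of their summed FPKM, ATP5MC1 went from 66.8% ± 5.27 (SD, n = 4) at 0h to 38.2% ± 4.91 at 22h and 4.54% ± 2.10 at 46h. ATP5MC2 went from 32.5% ± 5.16 to 57.0% ± 3.57 and 69.7% ± 2.82. ATP5MC3 went from 0.725% ± 0.145 to 4.79% ± 2.66 and 25.8% ± 2.45. The sum of the 3 was 2016 ± 538, 349 ± 135 and 96.1 ± 20.6 FPKM, so most of the c-subunit transcript present at 0h was no longer measured at 46h, and what was left came mainly from ATP5MC2.

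**Figure D5:**
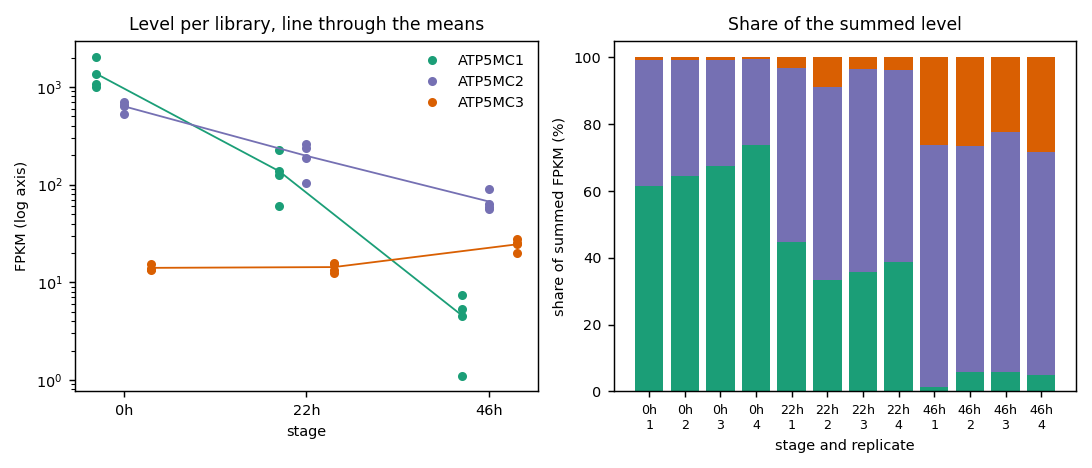
Left, FPKM (log axis) of the 3 c-subunit genes in each library by stage, with lines through the means. Right, each gene's share (%) of their summed FPKM in each of the 12 libraries. The share of ATP5MC1 was 61.5% to 73.8% at 0h and 1.44% to 5.89% at 46h.

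A ratio of 2 genes within a library cancels library scaling except through the 1 FPKM added to each value, so the parting was tested on it. The mean log2 ratio of ATP5MC1 to ATP5MC2 was 1.05 ± 0.35 (SD, n = 4) at 0h, -0.58 ± 0.26 at 22h and -3.75 ± 0.67 at 46h. That of ATP5MC1 to ATP5MC3 was 6.45 ± 0.40, 3.04 ± 0.82 and -2.34 ± 0.68. That of ATP5MC2 to ATP5MC3 was 5.40 ± 0.16, 3.62 ± 0.65 and 1.40 ± 0.19. Every pair of stages was fully apart for every ratio, and each of the 9 exact two-sided permutation tests gave p = 0.0286, the smallest that 4 against 4 libraries allow, and 0.0286 after Benjamini-Hochberg adjustment over the 9. Of these, 6 involve ATP5MC2, which was identified only through a list ordered by change in these libraries, so those 6 are not independent evidence, and the other 3 compare ATP5MC1 with ATP5MC3. The ratios show an unequal change of the 3 genes and not which of them changed.

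ATP5PD (ENSSSCG00000032166, named by the supplementary list) encodes subunit d of the peripheral stalk, and had the deepest fall of all 39, although it too was identified through the list ordered by change in these libraries. Its levels were 978, 904, 1428 and 2261 FPKM at 0h, 886, 347, 357 and 318 at 22h and 3.11, 1.87, 1.71 and 0.36 at 46h. The step to 22h was -1.59 ± 0.39 (adjusted p = 0.00732) and the step to 46h -7.40 ± 0.39 (adjusted p = 2.39e-09), and the steps differed by -5.81 ± 0.68 (adjusted p = 3.14e-05). It went from the second most abundant member at 0h to the 25th at 46h. Other stalk genes, chosen after their values were seen, fell as well. ATP5PO, the oligomycin sensitivity protein that joins stalk and head, went from 112 ± 37.4 to 28.9 ± 5.4 and 4.25 ± 0.989 FPKM, a change of -4.39 ± 0.23 (adjusted p = 1.09e-09).

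ATP5PF, coupling factor 6, had 22.8, 23.2, 35.8 and 45.8 FPKM at 0h, 23.2, 16.8, 13.2 and 11.4 at 22h and 0.46, 1.11, 0.77 and 2.01 at 46h. Most of its change of -3.97 ± 0.28 (adjusted p = 2.16e-08) came after 22h, and its call at 22h was lost without any of 3 libraries, without the filter and with a pseudocount of 0.1. ATP5PF overlaps GABPA on the opposite strand by 722 bases. ATP5PB, subunit b, went from 32.6 ± 10.2 to 12.4 ± 1.21 and 9.12 ± 1.98 FPKM, and it was lower in the step to 22h with -1.28 ± 0.21 (adjusted p = 0.000572), while the later step gave -0.42 ± 0.21 and was not called. The difference of the steps was not called for ATP5PB (0.86 ± 0.37, adjusted p = 0.118, although called higher after quantile normalization and median-of-ratios scaling) or ATP5PO (-0.63 ± 0.40, adjusted p = 0.286), and was lower for ATP5PF (-2.11 ± 0.49, adjusted p = 0.00677). At 46h against 0h, ATP5PO, ATP5PF and ATP5PB were each lower without overlap, as was ATP5PD, which is left out of the counts. Of all genes tested, 39.1% were called lower there and 39.2% had every library lower.

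ATP5IF1 (ENSSSCG00000027072) encodes the inhibitor that stops complex V from running backwards and burning ATP when the proton gradient is lost. Its levels were 243, 216, 384 and 537 FPKM at 0h, 148, 87.2, 76.6 and 77.5 at 22h and 9.15, 7.91, 5.55 and 5.07 at 46h. It fell to 22h with a change of -1.77 ± 0.30 (adjusted p = 0.00058) and again with -3.61 ± 0.30 to 46h (adjusted p = 2.19e-07), with no overlap. The later step of ATP5IF1 differed from the earlier by -1.84 ± 0.52 (adjusted p = 0.0208), a call that was lost without 22h replicate 1 (-1.40), without the filter and with quantile normalization (-1.45).

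The genes of the F1 head went opposite ways. ATP5F1C (ENSSSCG00000034086) encodes the gamma subunit, the shaft that turns inside the head. Its levels were 256, 292, 259.5 and 196 FPKM at 0h, 322, 397, 408 and 455 at 22h and 482, 429.8, 533 and 483 at 46h. It rose by 0.66 ± 0.17 to 22h (adjusted p = 0.00806) and by 0.95 ± 0.17 to 46h against 0h (adjusted p = 0.00017), the largest rise among the members, and all later libraries lay above all 0h libraries. Without 0h replicate 4 the rise to 22h was 0.55 and was not called, and with median-of-ratios scaling the step from 22h to 46h was called higher (0.65). ATP5F1C overlaps a long noncoding RNA on the opposite strand by 3034 bases in RefSeq.

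ATP5F1A, the alpha subunit of the head, went the other way, with 56.6, 70.4, 45.4 and 24.6 FPKM at 0h, 19.2, 22.8, 34.4 and 35.99 at 22h and 11.4, 14, 13.1 and 16.1 at 46h and a change of -1.69 ± 0.29 at 46h against 0h (adjusted p = 0.000133). ATP5F1D, the delta subunit, went from 9.19 ± 1.8 to 3.43 ± 2.25 and 0.155 ± 0.197 FPKM, a change of -3.14 ± 0.31 (adjusted p = 6.10e-07), was listed at 0 in 2 of the 46h libraries, and is one of the genes that passed the filter through earlier stages. The size of such changes depends on the pseudocount: with 0.1 in place of 1, the change at 46h against 0h was -5.52 for ATP5F1D, -3.27 for COX7A1, -1.95 for COX4I1, -4.86 for ATP5PF and -9.74 for ATP5PD. ATP5F1A, ATP5F1D, ATP5ME and ATP5MK were chosen after their values were seen. The order of the 3 head genes was ATP5F1C, ATP5F1A, ATP5F1D at every stage. The small membrane subunits ATP5ME and ATP5MK, which help hold pairs of the enzyme together, fell from 15.9 ± 9.53 to 1.64 ± 0.61 FPKM and from 71.95 ± 45.5 to 12.98 ± 7.27 FPKM, with -2.56 ± 0.36 (adjusted p = 2.34e-05) and -2.31 ± 0.45 (adjusted p = 0.000462). The lower call of ATP5ME at 22h against 0h was lost without the filter and without 22h replicate 4. That of ATP5MK at 46h against 22h was lost in several settings, among them median-of-ratios scaling (-0.92). The step of ATP5MK to 22h was called lower only without 0h replicate 2 or 22h replicate 1.

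Some members at 0h were highest in replicate 4, the library that stood apart, and others were lowest there. ATP5MC1, ATP5PD, ATP5IF1, ATP5PO, ATP5MK, ATP5ME, UQCR10 and COX7A2, among others, had their highest value there. ATP5F1A, ATP5F1C, ATP5F1D, COX5A, COX7A2L, CYCS, SDHB, SDHD and UQCRFS1 had their lowest 0h value there. The shares of all genes that were highest or lowest there were not counted. Without it 16 members were lower and 1 higher at 22h against 0h and 21 lower and 2 higher at 46h against 0h, with medians of -0.74 and -1.87. The part of this library in the spread of single genes at 0h was not tested further.

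Of the 30 members tested, 19 had a transcript under 1000 bases, and genes of that class fell more in these libraries. The RefSeq transcripts of the 30 members tested were 317 to 3325 bases long, with a median of 790, beside 3068 over the 5677 genes tested with a length (80.9%). Of the 429 genes tested with a transcript under 1000 bases, 40.6% were lower at 22h against 0h, 50.8% at 46h against 22h and 62.5% at 46h against 0h, and 5.36%, 9.56% and 10.5% were higher. The 19 members of that class gave 12, 12 and 14 lower and 1, 2 and 1 higher, with median log2 fold changes of -0.93, -1.29 and -2.32, beside -0.48, -0.67 and -1.24 over the 429 genes. The 11 longer members gave 5, 4 and 8 lower and 1, 0 and 1 higher, where 5248 longer genes gave 15.8%, 30.8% and 36.2% lower and 8.12%, 9.68% and 17.3% higher. Their medians were -0.73, -0.29 and -0.89, beside 0.05, -0.22 and -0.17, and their count at 46h against 22h was near that background. Spearman's rho of log2 fold change with length was 0.41, 0.22 and 0.40 across the 30 members and 0.15, 0.17 and 0.20 across all genes with a length, in the same order, as a description across genes that share the same libraries. Overlapping genes are another feature of these loci: in RefSeq 10 members share bases with another gene, among them SDHA with CCDC127 (363 bases), ATP5PB with WDR77 (435), UQCRC2 with PDZD9 (4119) and UQCR11 with TCF3 (3057). The part of transcript length and of overlapping genes in the members' change was not tested further.

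The cDNA was primed with oligo-dT, so the 3′ end of each transcript is where its measurement begins. In maturing oocytes the cytoplasmic polyadenylation element (CPE) near the poly(A) signal marks mRNAs whose tails are lengthened, and mRNAs without it tend to lose their tails. One RefSeq transcript per gene was searched on its sense strand. The letters AATAAA or ATTAAA were in the last 50 bases of 35 of 39 members (89.7%), of 59.4% of 19535 RefSeq genes and of 71.5% of the 5654 genes tested that shared a symbol. The CPE letters TTTTAT or TTTTAAT were in the last 100 bases of 2 members (5.13%), ATP5IF1 and UQCRFS1, of 15.1% of all RefSeq genes and of 21.5% of those tested genes. Among transcripts with a poly(A) signal, they were in 1 of 35 members (2.86%), 18.6% of RefSeq genes and 24.4% of those tested genes. The transcript used may not hold the end that the oocyte uses, and absence of the letters says nothing of the factor that binds them.

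The last 30 bases are printed for the 3 members with the deepest falls and for 2 that kept or raised their level, since these ends are where the 2 kinds of transcript meet the primer. They are given 5′ to 3′, from RefSeq (Sscrofa11.1), with the poly(A) signal in capitals. They lie at chr12:6247314-6247343, plus strand (ATP5PD), chr12:25113445-25113474, plus strand (ATP5MC1), chr6:85309182-85309211, plus strand (ATP5IF1), chr10:63584288-63584317, minus strand (ATP5F1C) and chr2:8101609-8101638, minus strand (COX8A).
ATP5PD: actccggacATTAAAaataattacatagtg
ATP5MC1: tgctgagcttgaccATTAAAcacaacgttt
ATP5IF1: gctgccaacaaattacAATAAAttgtatca
ATP5F1C: tcttacAATAAAtgagtcactatacggaaa
COX8A: aacAATAAAgtctgtttaaaccctgctgca

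Genes of both kinds held a poly(A) signal within these ends. The CPE letters of ATP5IF1 lie upstream of the stretch above, in the 30 bases at chr6:85309148-85309177, plus strand, with those letters in capitals here.
ATP5IF1 CPE window: catcattctggTTTTAATtaatagctatct

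ATP5IF1 fell by 5.39 on the log2 scale from 0h to 46h with these letters in its end. UQCRFS1, the other member that holds them, gave -0.55 and had no poly(A) signal in its last 50 bases. ATP5F1C and ATP5MC3, which rose, did not hold them in the window searched. The part of these letters in the members' change was not tested.

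The rest of the pathway gives the setting of these values, to be read beside all genes tested at 46h against 0h, of which 39.1% were lower and 16.8% higher with a median of -0.25. Nuclear complex I genes were lower for 21 of 25 tested at 46h against 0h and higher for none, with a median of -2.67. The mitochondrially encoded genes were higher for 12 of 13 and lower for none, with a median of 2.68, under FPKM as deposited. Assembly factors of complexes II to V were lower for 8 of 13 tested and higher for 1, with a median of -1.67. Regulators of mitochondrial gene expression were lower for 2 of 6 tested and higher for 1, with a median of -0.23, which is at that background. The oocyte markers were lower for 10 of 13, with a median of -1.87. Removing the mitochondrially encoded genes and scaling the rest to a fixed sum left 21 members lower and 3 higher at 46h against 0h.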

How the data were processed

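Per the labels, RNA from pools of 20 oocytes was amplified from oligo-dT with SMART-Seq2. The authors' notes and methods name FastQC, Trim Galore, STAR, HTSeq and RSEM with the Sscrofa11 genome, and the deposited values are FPKM per gene. Read counts were not used here, so the count test of the study's methods was replaced by limma 3.58.1 (R 4.3.3). It was fitted on log2(FPKM + 1) for all 12 libraries with an intensity trend, two-sided, with Benjamini-Hochberg adjustment over all genes that averaged 1 FPKM or more. Calls needed an adjusted p under 0.05 and a fold change over 1.5. Genes under the filter and c-subunit ratios had exact permutation tests. Names matched 15029 of 31908 identifiers. Sequences, lengths and ends are RefSeq Sscrofa11.1, whose coordinates the files do not hold.

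Members and lists were chosen with earlier results of these data known. Values were given in full for all SDH genes, CYC1, CYCS, the c-subunit genes, ATP5IF1, and tissue forms and their partners. They were also given for the 2 largest falls and rises past the thresholds per complex, every member that rose past them, and some members at a threshold. Scripts ran on Python 3.11.15 with scipy 1.17.1, pandas 2.3.3, numpy 2.4.6, pysam 0.24.0 and matplotlib 3.10.9, and the fit was tested on simulated data. Alternatives were another pseudocount, filter, scaling or variance model, only the groups compared, a replicate block and each library left out. The labels give 22h for the middle stage, and the design text another hour.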

Additional observations from a re-analysis of the deposited data

Results flagged for a closer look

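In 110 groups of 4 libraries of 1 member at 1 stage, 8 held a library whose gap to the nearest other, as a share of the group's range, exceeded Dixon's 95% limit, where chance at 1 in 20 gives 5.5. ATP5IF1 was 148.1 FPKM in 22h replicate 1, above the other 22h libraries. ATP5PD was 885.6 FPKM in the same library. COX8A was 832.3 FPKM in 46h replicate 3. The other flags concern groups with 3 of 4 libraries at 0, where any value above 0 exceeds the limit. The count of 8 therefore cannot be set against the 5.5. COX6A2 was 0.12 FPKM in 0h replicate 2, 0.11 in 22h replicate 1 and 0.09 in 46h replicate 4, and at 0 in all other libraries. UQCR11 was 0.04 FPKM in 0h replicate 4 and 0.03 in 46h replicate 2. The cause of these values was not tested.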

How the results depend on the processing

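Counts of called members and medians in the 3 comparisons of stages kept their direction in every alternative run. For the difference of the steps, lower calls outnumbered higher ones as deposited but not after quantile normalization or median-of-ratios scaling, with 10 members called in each. The cause of the shifts was not tested. With median-of-ratios scaling the members' median was -0.65 at 46h against 22h and -1.41 at 46h against 0h, with 6 and 5 members higher. With quantile normalization it was -0.48 and -1.36, with 4 and 4 higher, and COX7C at 46h against 0h, lower as deposited, was 0.095 and no longer called. Without the filter the medians were -0.54 and -1.42. With a mean of at least 5 FPKM the median at 46h against 0h was -1.99, and with the 3 genes of the supplementary list included, chosen after seeing the data, also -1.99.

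With 1 library left out at a time, 1 to 2 members were higher at 22h against 0h, and 1 only without 0h replicate 4. COX5B under the filter could not pass with 3 libraries in a stage, so 0 to 0 members did at 46h against 22h. The c-subunit ratios then gave an adjusted p of 0.0571, the smallest 4 against 3 allows, so their calls could not be checked this way. The difference ranged, at 22h against 0h, 46h against 22h and 46h against 0h in turn, from -1.75 to -1.48, -3.30 to -2.83 and -4.93 to -4.46 for ATP5MC1 to ATP5MC2, from -3.66 to -3.02, -5.77 to -5.05 and -8.97 to -8.46 for ATP5MC1 to ATP5MC3, and from -1.92 to -1.46, -2.54 to -2.08 and -4.08 to -3.93 for ATP5MC2 to ATP5MC3.

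The replicate numbers did not pair the libraries: deviations of same-numbered libraries correlated at -0.466 to 0.381, with 3 of 12 pairs over 0.1, and 0 libraries correlated best with their own number in both other stages. A replicate block left the counts at 17 lower and 2 higher, 16 and 2, and 22 and 2. Depth is unknown, so the counting error of levels near 0 could not be estimated.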
